A study of Rattus norvegicus with 6 samples.

Results

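The semaphorins, plexins and neuropilins were examined in cultured rat oligodendrocyte precursor cells (OPCs), from which oligodendrocytes form. The members were all entries of the deposited table named Sema with a class digit, Plxn with a type letter a to d, Nrp1 or Nrp2. The rule found 31 genes of 32883, namely 20 semaphorins, 9 plexins and 2 neuropilins, all listed as protein-coding. The OPCs came from pooled cerebral cortices of 2 Sprague Dawley rats at postnatal day 0, were shaken off the mixed glial cultures and kept in Neurobasal with B27 and N2. One group received ZJU-37, an inhibitor of the kinase RIPK1, at 5 µM for 36 h, and the other received the same volume of its solvent DMSO. The study's methods name a shorter treatment than the labels do. Poly-A RNA of 3 libraries per group was sequenced. The sources name these libraries both as biological repeats and as plate wells, so that p-values measure the spread between these libraries, which may be technical.

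Semaphorins are a family of secreted or membrane-bound guidance proteins that share a sema domain and were first known for turning away growing axons. Plexins are their transmembrane receptors and act on small GTPases to rearrange the cytoskeleton. Most secreted class 3 semaphorins need a neuropilin as a binding partner beside an A-type plexin, whereas the membrane-bound classes bind plexins directly. In the oligodendrocyte lineage these signals are known to steer the migration of OPCs, with Sema3a repelling them and Sema3f attracting them, and several semaphorins hold back their differentiation.

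All 31 members passed the filter on low counts, with summed counts from 156 for Sema3g to 54635 for Plxnb2. By edgeR's quasi-likelihood test, adjusted after Benjamini and Hochberg over the 14670 tested genes, 9 members (29.0%) had an adjusted p-value under 0.05, against 15.0% of all tested genes. Of these, 6 fell with ZJU-37 (19.4% of the members, against 5.58% of all tested genes) and 3 rose (9.68%, against 9.43%). The genes that fell were Sema5a, Plxnb3, Sema3d, Sema3e, Sema6d and Sema5b. The genes that rose were Sema3a, Plxna2 and Plxnc1. The median log2 fold change was -0.07 over the 31 members and -0.03 over all tested genes. In 5 members (16.1%) the fall was at least 1 on the log2 scale, against 1.45% of all tested genes, and in 6 members a change of that size was called in either direction, against 4.24%. The library values of the groups were fully separated in 14 members (45.2%), against 35.2% of all tested genes. Because libraries with the same replicate number deviated together, the replicate number was also fitted as a block. With the block, 14 members (45.2%) passed, 6 higher and 8 lower, against 32.1% of all tested genes. All 9 were among these 14, and the 5 others were Sema4f, Sema6c, Sema7a, Sema4c and Nrp2.

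**Figure D1:**
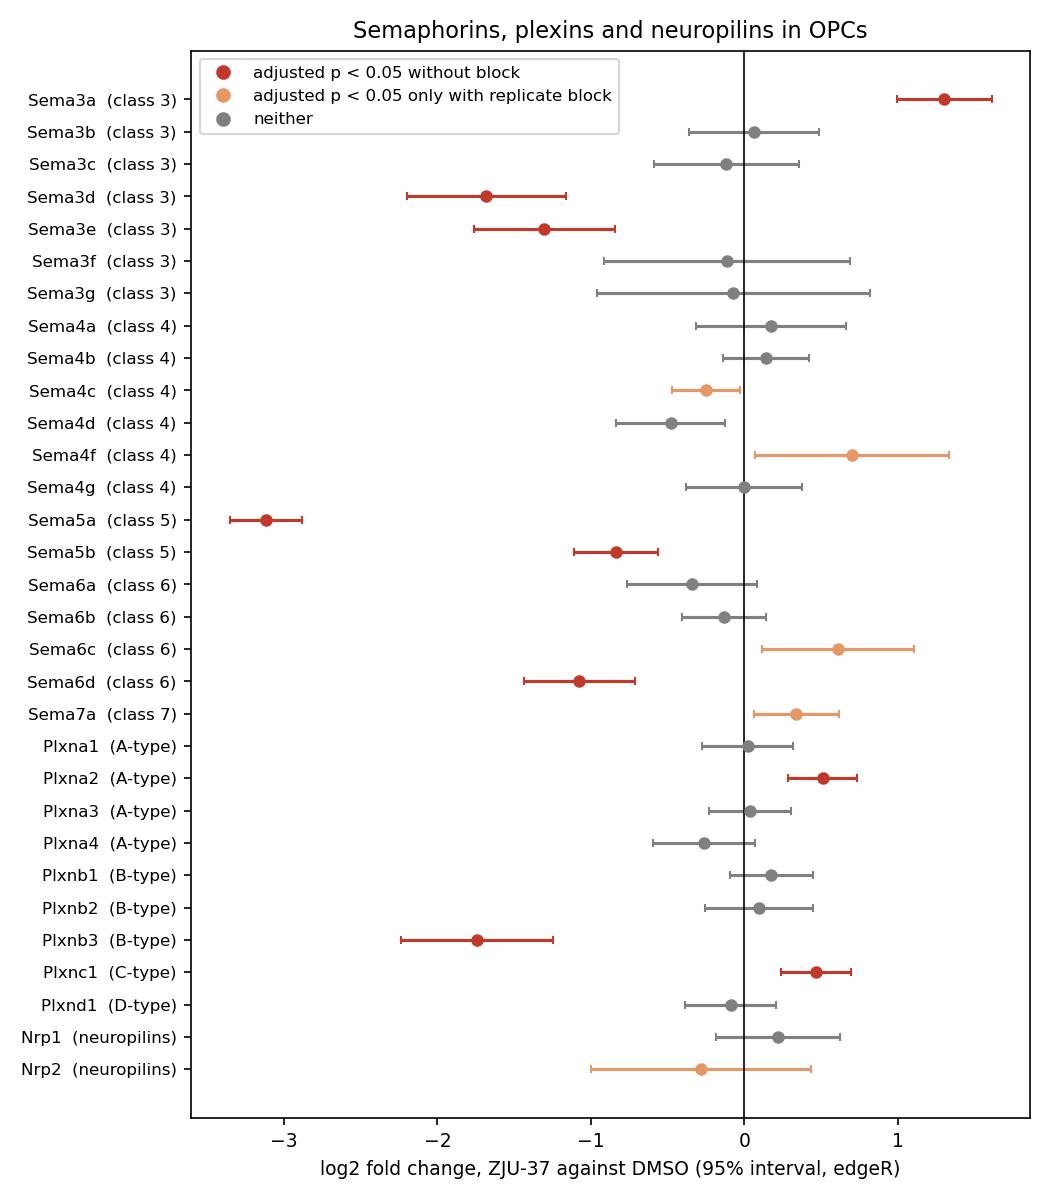
The horizontal axis gives the log2 fold change of ZJU-37 against DMSO with its 95% interval from edgeR, and each line is 1 of the 31 members, ordered by class (red, passed without the block; orange, passed with the block alone; grey, neither). Sema5a at -3.12 lies far to the left of all other members, and Sema3a at 1.30 lies farthest to the right.

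The largest change was that of Sema5a, a membrane-anchored semaphorin with thrombospondin repeats that binds Plxnb3 and is known from oligodendrocytes as an inhibitor of axon growth. In the authors' table Sema5a (ENSRNOG00000011977) lies on chromosome 2 (85377318 to 85808970, plus strand), in a genome build that the sources used here do not name. Its level, as counts scaled to library size by TMM (CPM), was 283, 258 and 229 under DMSO, in the order of replicates 1, 2 and 3 that all triplets keep. Under ZJU-37 it was 31.4, 27.9 and 29.5 CPM. The groups were far apart, with every ZJU-37 library below every DMSO library and little spread within either group. The mean fell from 257 ± 27.1 to 29.6 ± 1.72 CPM (SD, n = 3 libraries each, as for all ± values below), an 8.68-fold lower level. On the log2 scale this was a change of -3.12 (standard error, SE, 0.10, adjusted p = 9.83e-05, edgeR). The differences within replicate numbers 1, 2 and 3 were -3.17, -3.20 and -2.95 on the log2 scale. In libraries of mixed cells, fewer cells that express a gene and less RNA per cell cannot be told apart, here and for all results below.

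Sema5b, the other class 5 member, fell less. Its level was 162, 150 and 133 CPM in the DMSO libraries and 94.3, 81.0 and 73.4 CPM in the ZJU-37 libraries, again without overlap. This was a log2 fold change of -0.84 (SE 0.11, adjusted p = 0.00395, edgeR). Its 95% interval of -1.11 to -0.57 lay apart from the interval of Sema5a, which was -3.35 to -2.88. The difference between the 2 genes was not tested further.

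Plxnb3, a B-type plexin known to be enriched in oligodendrocyte lineage cells and to serve as a receptor of Sema5a, fell as well. It (ENSRNOG00000061731) lies on chromosome X (157015305 to 157028434, minus strand). Its level was 549, 454 and 375 CPM under DMSO against 157, 151 and 104 CPM under ZJU-37. Replicate 3 was the lowest library of both groups, and the highest ZJU-37 library was still well below the lowest DMSO library. The mean fell from 460 ± 87.3 to 137 ± 29.2 CPM, which is -1.74 on the log2 scale (SE 0.20, adjusted p = 0.00255, edgeR). Neither of the other B-type plexins passed the test. Plxnb1, the main receptor of Sema4d, had a log2 fold change of 0.17 (95% interval -0.10 to 0.44, adjusted p = 0.382). Plxnb2, a receptor of Sema4c, had 378, 490 and 505 CPM with DMSO and 410, 531 and 527 CPM with ZJU-37. These values overlapped, with a log2 fold change of 0.10 (95% interval -0.26 to 0.45, adjusted p = 0.728). In FPKM, which divides by gene length, Plxnb3 made up 55.4%, 45.9% and 40.1% of the sum of the B-type plexins under DMSO. With ZJU-37 its share was 24.1%, 20.8% and 14.9%, and Plxnb2 held between 57.0% and 68.8%.

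Sema6d, a transmembrane semaphorin that binds Plxna1, also fell. It lies on chromosome 3 (116899878 to 116958050, plus strand). Its level was 294, 224 and 206 CPM in the DMSO libraries and 126, 116 and 102 CPM in the ZJU-37 libraries, without overlap. Its log2 fold change was -1.07 (SE 0.15, adjusted p = 0.00468, edgeR). Sema6a, a ligand of Plxna2 and Plxna4 and the semaphorin with the highest level per length, had 316, 210 and 205 CPM with DMSO and 204, 195 and 176 CPM with ZJU-37. The groups lay side by side with hardly a gap, and DMSO replicate 1 stood above the other 5 libraries. The log2 fold change of Sema6a was -0.34 (95% interval -0.77 to 0.08, adjusted p = 0.266, and 0.0751 with the block). Sema6c went the other way in every replicate number. Its level was 14.0, 9.49 and 10.7 CPM with DMSO and 21.9, 14.8 and 15.4 CPM with ZJU-37, a log2 fold change of 0.61 (adjusted p = 0.104). With the replicate block Sema6c passed (adjusted p = 0.00137, from 0.00137 to 0.261 over its alternatives). Sema6b had a log2 fold change of -0.13 (adjusted p = 0.518).

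**Figure D2:**
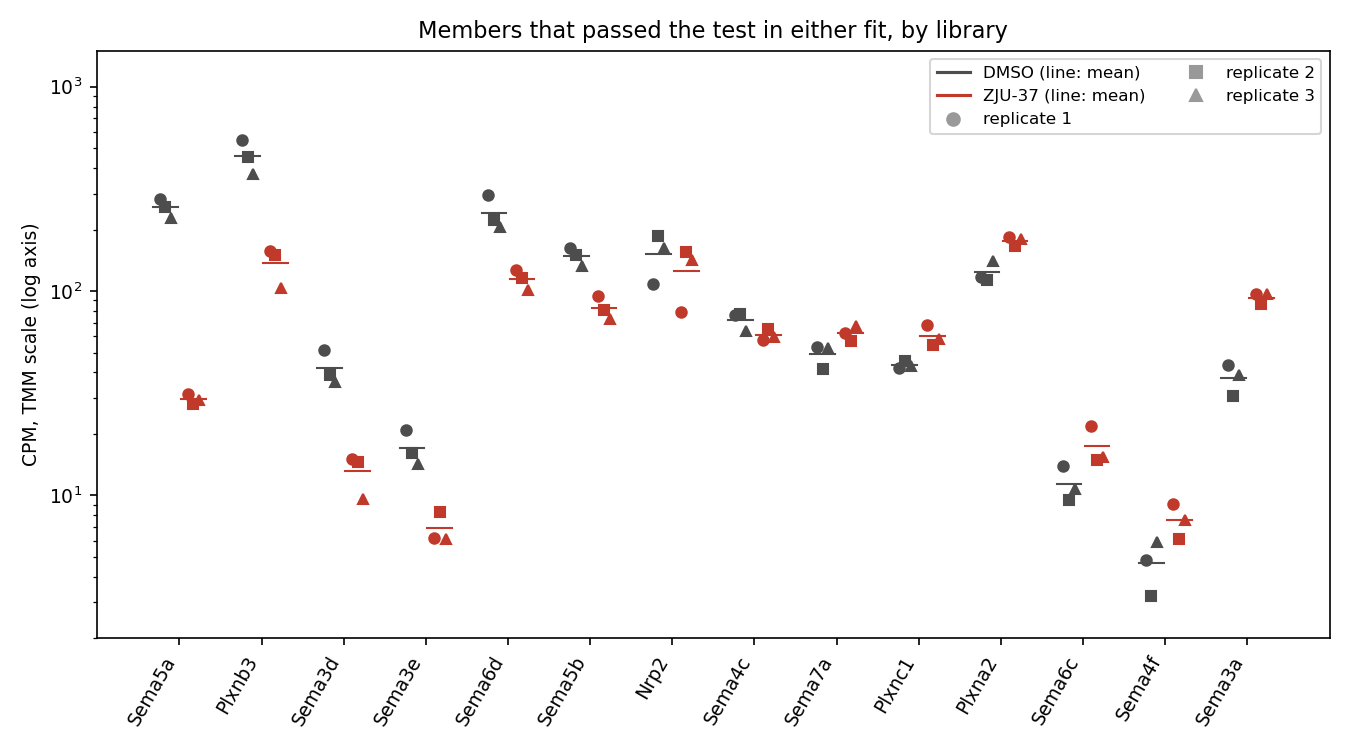
CPM of each library on a log axis for the 14 members that passed the test without or with the replicate block, ordered by fold change. Grey marks are DMSO, red marks are ZJU-37, shapes give the replicate number and lines are means of 3 libraries. Sema5a shows the widest gap, from 229 CPM in the lowest DMSO library to 31.4 CPM in the highest ZJU-37 library.

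Among the secreted class 3 semaphorins, 1 of 7 rose and 2 fell. Sema3a, the ligand of Nrp1 that is known to repel OPCs and to hold back their differentiation, rose. It (ENSRNOG00000023337) lies on chromosome 4 (18178656 to 18396035, minus strand). Its level was 43.7, 30.8 and 38.8 CPM under DMSO against 96.3, 86.5 and 96.3 CPM under ZJU-37. The ZJU-37 libraries lay close together, each well above all DMSO libraries. The mean rose from 37.8 ± 6.48 to 93.0 ± 5.67 CPM, which is 1.30 on the log2 scale (SE 0.13, adjusted p = 0.00111, edgeR). In FPKM, Sema3a made up between 27.8% and 32.3% of the class 3 sum with DMSO and between 57.6% and 67.4% with ZJU-37.

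Sema3d and Sema3e, which lie on the same chromosome 4 and the same strand as Sema3a, fell. Sema3d (19224310 to 19413484) had 51.3, 39.0 and 35.8 CPM with DMSO and 15.1, 14.6 and 9.59 CPM with ZJU-37. Its log2 fold change was -1.68 (SE 0.22, adjusted p = 0.00342, edgeR). Sema3e (17272511 to 17594598) binds Plxnd1 without a neuropilin and had 20.8, 16.1 and 14.3 CPM with DMSO. With ZJU-37 it had 6.22, 8.34 and 6.16 CPM, which is -1.30 on the log2 scale (SE 0.19, adjusted p = 0.00549, edgeR). In both genes the groups were separated. The other 4 class 3 members did not pass either fit. Sema3c, which lies on chromosome 4 as well, had 49.2, 49.6 and 60.5 CPM with DMSO and 34.9, 54.2 and 57.6 CPM with ZJU-37, a log2 fold change of -0.12 (adjusted p = 0.750). Sema3b, Sema3f, the Nrp2 ligand that attracts OPCs, and Sema3g were low, with means of at most 5.92 CPM in either group. For Sema3f the 95% interval of the log2 fold change ran from -0.92 to 0.69. The span of Sema3f overlaps that of Gnat1, whose summed count was 4.08% of that of Sema3f.

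Promoter windows of RefSeq on assembly GRCr8, from 250 bases before to 50 bases after the gene start, were found for 23 of the 31 members. Of the members that passed without the block, Sema5a and Sema3a, with the largest fall and the largest rise, had no window. Shown, 5′ to 3′, are the windows of the 3 largest falls and of the largest rise among the others. Capitals mark GGGCGG, the core bound by SP factors, and ACAAAG, a core bound by SOX factors, on either strand.
Plxnb3 (chrX:156646624-156646923, plus strand): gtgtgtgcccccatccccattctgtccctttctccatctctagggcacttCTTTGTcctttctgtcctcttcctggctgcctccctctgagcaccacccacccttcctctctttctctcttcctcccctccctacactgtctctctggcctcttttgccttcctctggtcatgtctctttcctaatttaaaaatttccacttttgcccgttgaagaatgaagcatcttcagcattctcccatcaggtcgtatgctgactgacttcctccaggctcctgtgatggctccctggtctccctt
Sema3d (chr4:23460922-23461221, minus strand): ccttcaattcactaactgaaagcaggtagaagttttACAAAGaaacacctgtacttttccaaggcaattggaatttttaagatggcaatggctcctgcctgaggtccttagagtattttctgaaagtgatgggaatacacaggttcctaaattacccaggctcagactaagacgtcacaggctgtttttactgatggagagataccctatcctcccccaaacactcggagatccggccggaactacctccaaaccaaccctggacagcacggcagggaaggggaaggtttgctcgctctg
Sema3e (chr4:21510325-21510624, minus strand): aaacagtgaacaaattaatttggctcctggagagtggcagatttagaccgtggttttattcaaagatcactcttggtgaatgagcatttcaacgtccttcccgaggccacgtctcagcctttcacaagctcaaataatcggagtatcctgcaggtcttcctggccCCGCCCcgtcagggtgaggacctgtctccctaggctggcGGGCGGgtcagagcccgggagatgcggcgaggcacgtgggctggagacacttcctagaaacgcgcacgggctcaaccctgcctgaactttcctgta
Plxna2 (chr13:108691280-108691579, plus strand): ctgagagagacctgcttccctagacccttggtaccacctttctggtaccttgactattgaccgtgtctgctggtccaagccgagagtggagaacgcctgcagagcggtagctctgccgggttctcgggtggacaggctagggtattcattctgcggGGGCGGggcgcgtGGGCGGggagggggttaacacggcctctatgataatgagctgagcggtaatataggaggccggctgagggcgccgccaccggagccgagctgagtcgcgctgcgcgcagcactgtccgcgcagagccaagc
The Plxnb3 and Sema3d windows each hold 1 SOX core and no SP core, while the Sema3e and Plxna2 windows each hold 2 SP cores and no SOX core. RefSeq places Plxnb3 on the other strand than the authors' table does, whose build is not named. The SP core was present in 13 of the 23 windows (56.5%), against 33.1% of all 33469 RefSeq windows of the same length. These 33469 windows were not limited to genes that passed the filter on low counts, whereas all 31 members passed it. Of the 7 windows of members that passed the test, 4 held the SP core. The SOX core was present in 5 of 23 (21.7%, against 18.8%), the TATA box TATAAA in 0 of 23 (against 14.2%) and the consensus NF-κB site in 2 of 23 (8.70%, against 7.51%), those of Sema6a and Sema6c. Of the 7 windows of members that passed, 0 held the NF-κB consensus and 2 held the SOX core. All motifs were searched on both strands, each on its own, so that matches of different motifs may overlap. The median GC content was 61.0% in the 23 windows and 51.7% in all windows. Plxnb3 had 52.0% with 2 CpG, Sema3d 47.3% with 6 CpG, Sema3e 55.3% with 16 CpG and Plxna2 63.3% with 24 CpG.

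Of the 6 class 4 semaphorins 0 passed in edgeR without the block, with 3 at an unadjusted p-value under 0.05, 1 in DESeq2 (Sema4d) and 0 in limma. Sema4d, a ligand of Plxnb1 that oligodendrocytes express and that is known to hold back their differentiation, came closest. Its level was 106, 92.6 and 84.8 CPM with DMSO and 57.0, 81.9 and 63.9 CPM with ZJU-37. The groups did not overlap, but the gap was narrow, and the log2 fold change was -0.48 (SE 0.15, adjusted p = 0.0820, and 0.0850 with the block, from 0.0188 to 0.216 over its alternatives). Sema4c, which binds Plxnb2, had 76.6, 77.2 and 64.1 CPM with DMSO and 57.8, 65.6 and 59.7 CPM with ZJU-37. These groups overlapped. Its log2 fold change of -0.25 had an adjusted p-value of 0.132, and of 0.0217 with the block (from 0.0217 to 0.323 over its alternatives). Sema4f had 4.82, 3.22 and 5.95 CPM with DMSO and 9.08, 6.11 and 7.56 CPM with ZJU-37. The lowest ZJU-37 library lay just above the highest DMSO library, and the log2 fold change was 0.70 (adjusted p = 0.135, and 0.0110 with the block, from 0.0110 to 0.278 over its alternatives). Sema4a, Sema4b and Sema4g had log2 fold changes of 0.17, 0.14 and 0.00 and passed neither fit.

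Sema7a, the class 7 member, is held on the membrane by a lipid anchor and binds Plxnc1. Its level was 53.4, 41.5 and 52.6 CPM with DMSO and 62.1, 56.7 and 67.2 CPM with ZJU-37, a log2 fold change of 0.34 (adjusted p = 0.109). With the block Sema7a passed (adjusted p = 0.00319, from 0.00319 to 0.237 over its alternatives). Plxnc1, on chromosome 7 (35850398 to 36000906, minus strand), rose. It had 42.1, 45.4 and 43.1 CPM with DMSO and 68.1, 54.3 and 58.3 CPM with ZJU-37. The DMSO libraries were nearly equal, and the ZJU-37 libraries were all higher and more spread. The log2 fold change of Plxnc1 was 0.47 (SE 0.10, adjusted p = 0.0191, edgeR), and its adjusted p-value rose to at most 0.0703 without DMSO replicate 1, 2 or 3 or without ZJU-37 replicate 3.

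Of the A-type plexins, the partners of the neuropilins in class 3 signaling, 1 of 4 changed. Plxna2, on chromosome 13 (113373578 to 113571648, plus strand), had 117, 114 and 140 CPM with DMSO. With ZJU-37 it had 183, 166 and 180 CPM, above all DMSO libraries. The change was 0.51 on the log2 scale (SE 0.09, adjusted p = 0.0133, edgeR), with an adjusted p-value of 0.0556 without DMSO replicate 2 and of 0.0552 without ZJU-37 replicate 3. Plxna1, the A-type plexin with the highest level, had 224, 291 and 283 CPM with DMSO and 239, 295 and 275 CPM with ZJU-37. The groups of Plxna1 lay on top of each other, with a log2 fold change of 0.02 (95% interval -0.28 to 0.32, adjusted p = 0.939). Plxna3 and Plxna4 had log2 fold changes of 0.04 and -0.27 and passed neither fit. Plxnd1, the receptor of Sema3e, had a log2 fold change of -0.09 (95% interval -0.38 to 0.21, adjusted p = 0.696).

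Of the neuropilins 0 of 2 passed without the block in edgeR (0 also at an unadjusted p-value under 0.05, in DESeq2 and in limma). Nrp1, the neuropilin of Sema3a, had 10.4, 13.6 and 15.3 CPM with DMSO and 13.1, 15.8 and 16.9 CPM with ZJU-37. Its log2 fold change was 0.22 (95% interval -0.19 to 0.62, adjusted p = 0.469). Nrp2, the neuropilin of Sema3f, had 108, 187 and 163 CPM under DMSO against 79.2, 155 and 142 CPM under ZJU-37. In both groups replicate 1 was far below replicates 2 and 3, so that the groups overlapped widely while each ZJU-37 library lay below the DMSO library of its number. The log2 fold change was -0.28 (SE 0.30, adjusted p = 0.603), and with the block it was -0.30 (SE 0.06, adjusted p = 0.00437, from 0.00437 to 0.970 over its alternatives). The summed level of 12 microglia markers had the same order of libraries within each group, with 2546, 4393 and 3441 CPM under DMSO against 1841, 3863 and 2897 CPM under ZJU-37. Of these markers 0 passed in edgeR without the block (0 also at an unadjusted p-value under 0.05, in DESeq2 and in limma), and 5 were lower with it. Plxna1 had the same order of libraries in both groups as well. The part of the microglia markers in the result for Nrp2 was not tested.

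**Figure D3:**
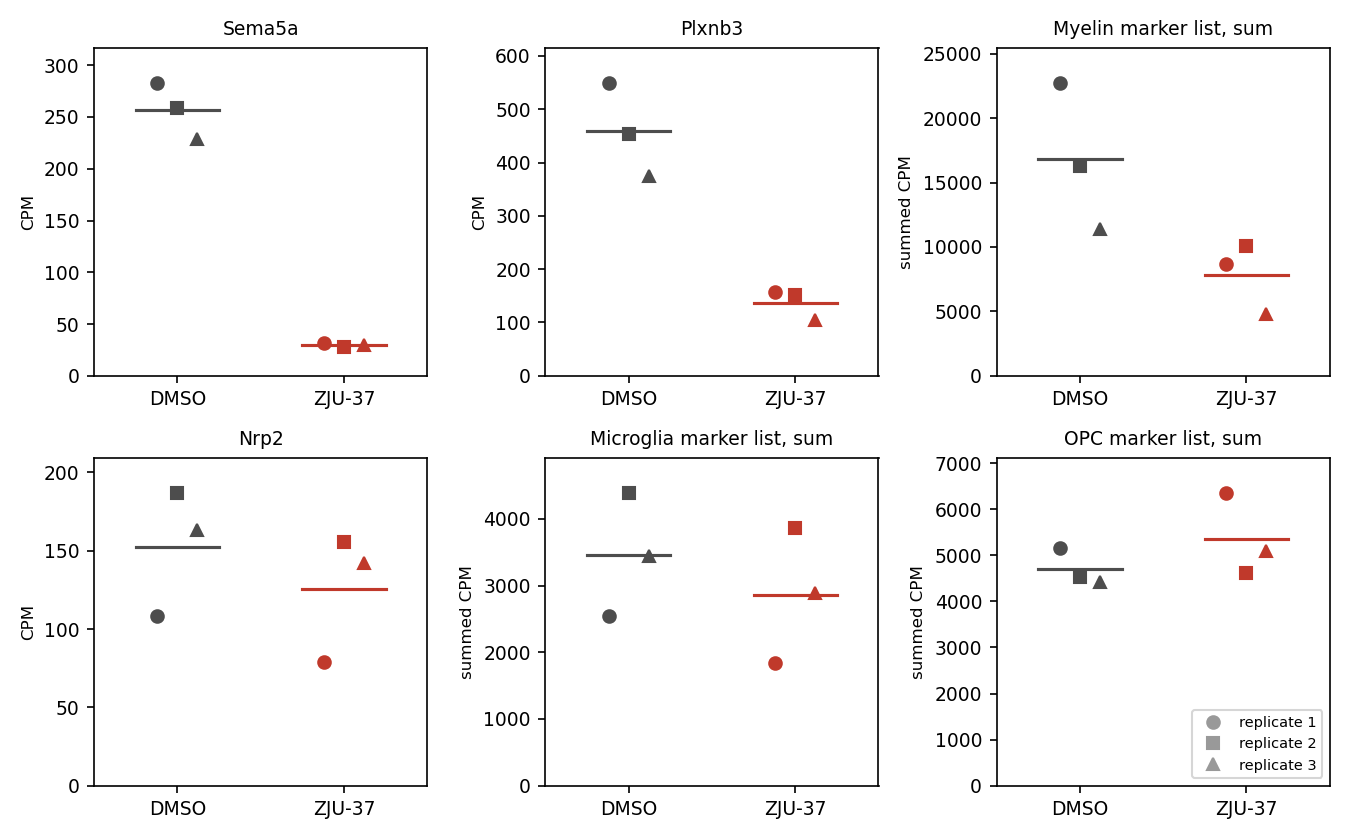
CPM of Sema5a, Plxnb3 and Nrp2 and the summed CPM of the myelinating oligodendrocyte, microglia and OPC marker lists, by group; shapes give the replicate number and lines are means of 3 libraries. The myelin list separates the groups less widely than Sema5a does, and Nrp2 and the microglia list share their order of libraries within each group.

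Markers of other cells moved with the groups to different degrees. The summed level of 10 myelinating oligodendrocyte markers ran from 11410 to 22737 CPM with DMSO and from 4816 to 10067 CPM with ZJU-37, and 2 of the 10 (Cnp and Myrf) fell in edgeR, 5 with the block and 6 in DESeq2, with 0 higher. The mean of this sum was 2.14-fold lower with ZJU-37, and the highest DMSO library was 1.99 times the lowest. For Sema5a the corresponding values were 8.68 and 1.24, for Plxnb3 3.35 and 1.46, and for Sema3d 3.20 and 1.43. For Sema3e they were 2.47 and 1.45, for Sema6d 2.11 and 1.42, and for Sema5b 1.79 and 1.22. The part of these cells in the falls of these genes was not tested. Among the OPC markers, of which the table held 9 of 10, 4 rose and 4 fell. The log2 fold changes were 1.10 for Pdgfra, 1.04 for Cspg4, 0.64 for Olig1 and 0.54 for Ptprz1, and -3.43 for Gpr17, -1.74 for Nkx2-2, -1.29 for Vcan and -0.61 for Sox10. Gpr17, a receptor known to mark OPCs committed to differentiation, thus fell beside Sema5a and Plxnb3, and the part of the cells it marks in their falls was not tested. The OPC marker sum was at least 4422 CPM in every library, with Pdgfra at 358 CPM or more and Cspg4 at 152 CPM or more. Of the other lists, 1 of 10 astrocyte markers rose and 1 fell (2 and 5 with the block), with sums of 1105 to 1758 CPM with DMSO and 980 to 1453 CPM with ZJU-37. Neuron markers summed to 772 to 1021 and 681 to 920 CPM, and mural and fibroblast markers to 48.8 to 114 and 28.5 to 79.7 CPM, with 0 of 10 and 0 of 6 tested markers passing in edgeR, DESeq2 or limma (1 and 0 at an unadjusted p-value under 0.05, and 3 and 1 lower with the block). Endothelial markers summed to 16.4 to 19.3 CPM with DMSO and 12.3 to 15.9 CPM with ZJU-37, without overlap. Of the 4 tested markers, 0 passed in these tools (1 at an unadjusted p-value under 0.05, and 1 lower with the block). Cldn5 and Emcn were at 0 in every library.

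Levels can be compared between genes only per length, for which the FPKM values of the authors were used. With DMSO, Plxnb3 (76.9 ± 14.5 FPKM), Sema6a (76.1 ± 19.2 FPKM) and Plxnb2 (69.6 ± 10.8 FPKM) stood highest, and these 3 did not differ beyond their spread. Sema5b followed with 45.0 ± 4.46 FPKM, and Sema3g was lowest with 0.359 ± 0.164 FPKM. With ZJU-37, Plxnb2 (74.2 ± 9.70 FPKM) and Sema6a (59.9 ± 5.00 FPKM) stood highest. Plxnb3 went from place 1 to place 7 of the 31, at 23.0 ± 5.04 FPKM. Sema5a went from place 7 (24.3 ± 2.54 FPKM) to place 23 (2.80 ± 0.190 FPKM). Sema3a went from place 15 (11.1 ± 1.85 FPKM) to place 4 (27.3 ± 1.81 FPKM), near Plxna1 at 30.2 ± 2.85 FPKM and Sema5b at 25.2 ± 3.49 FPKM. The FPKM of the 20 semaphorins summed to 349, 283 and 278 under DMSO against 241, 230 and 223 under ZJU-37. The 9 plexins summed to between 236 and 244 FPKM with DMSO and between 194 and 202 FPKM with ZJU-37. In the class 3 semaphorins, where Sema3a rose while Sema3d and Sema3e fell, the sums were 32.8 to 39.5 FPKM with DMSO and 42.4 to 45.5 FPKM with ZJU-37.

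**Figure D4:**
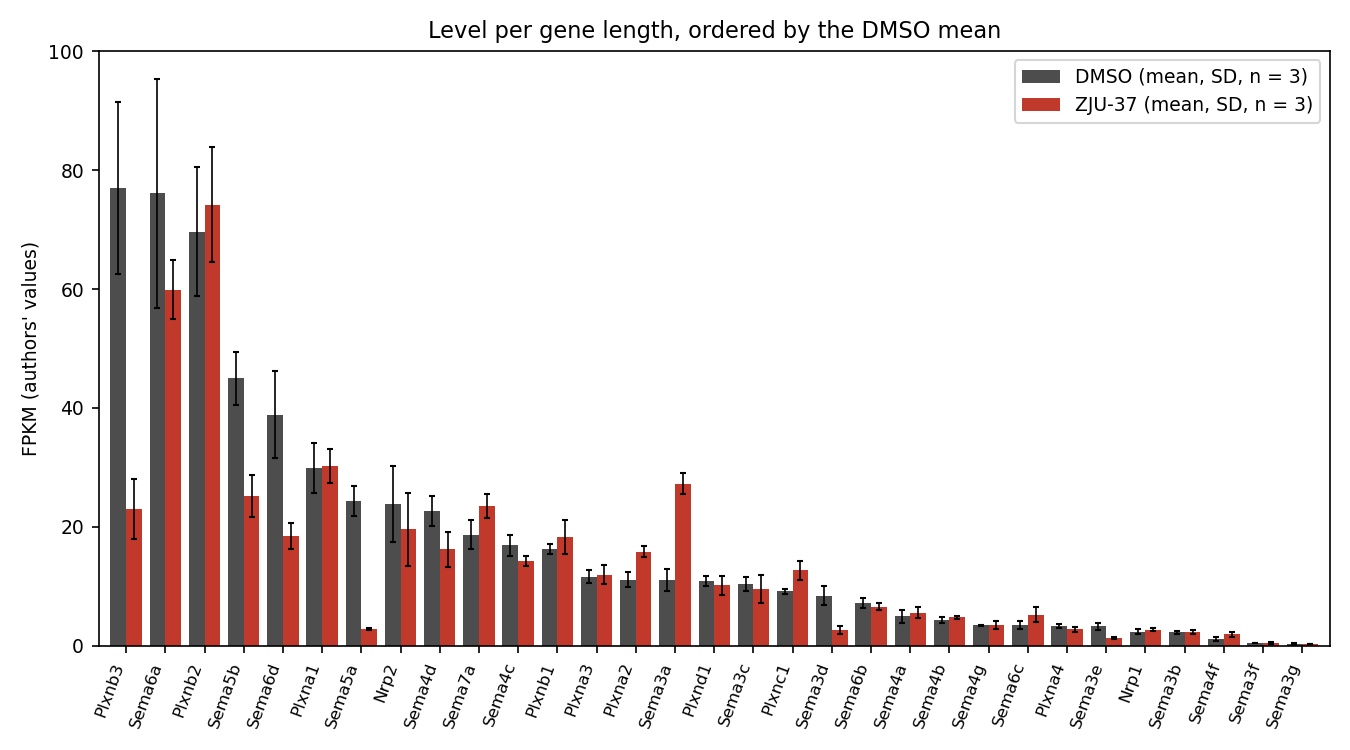
Bars give the mean FPKM of the authors with its SD over 3 libraries for the 31 members, in the order of the DMSO mean, with DMSO in grey and ZJU-37 in red. Plxnb3 and Sema5a drop from places 1 and 7 to places 7 and 23, and Sema3a climbs from place 15 to place 4.

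Known ligands and receptors can be set side by side. Sema5a and its receptor Plxnb3 both fell, with log2 fold changes of -3.12 and -1.74. Sema3e fell (-1.30), while its receptor Plxnd1 had -0.09. Sema6d fell (-1.07), while Plxna1 had 0.02. Sema6a had -0.34, while of its receptors Plxna2 rose (0.51) and Plxna4 had -0.27. Sema4d had -0.48 and Plxnb1 0.17, and Sema4c had -0.25 and Plxnb2 0.10. Sema3a rose (1.30), while its neuropilin Nrp1 had 0.22. Of the A-type plexins, Plxna2 rose (0.51), and Plxna1, Plxna3 and Plxna4 had 0.02, 0.04 and -0.27. Sema7a had 0.34 and its receptor Plxnc1 rose (0.47).

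Further genes of the pathway were taken from lists written from general knowledge. Of 42 intracellular effectors, all tested, 4 rose and 9 fell (31.0%, against 15.0% of all tested genes). Of all tested genes, 9.43% rose and 5.58% fell. The median log2 fold change of the effectors was -0.07. The falls were led by Rnd2, a small GTPase that binds plexins, with 187 ± 24.1 CPM with DMSO and 48.9 ± 5.45 CPM with ZJU-37 (log2 fold change -1.94, adjusted p = 3.20e-04, edgeR). Fyn, a kinase downstream of plexins that is also known from oligodendrocyte differentiation, fell from 1026 ± 99.4 to 498 ± 42.2 CPM (-1.04, adjusted p = 0.00102). Dpysl4, a collapsin response mediator, and Arhgap35, which encodes a GTPase-activating protein, had log2 fold changes of -0.81 and -0.80 (adjusted p = 0.0496 and 0.00371). The 4 rises were smaller than the falls named above. Their log2 fold changes were 0.67 for the Rac activator Tiam1 and 0.31, 0.29 and 0.24 for the kinases Limk1, Rock2 and Pak1. The count of 13 effectors became 5, 3 and 6 without DMSO replicate 1, 2 and 3, of which 1, 0 and 0 rose. It became 8 and 4 without ZJU-37 replicate 2 and 3, of which 4 and 1 rose. With the block 22 of the 42 passed, against 32.1% of all tested genes. Of 17 tested co-receptors and L1 family adhesion molecules (20 listed), 2 passed (11.8%, against 15.0% of all tested genes). Nfasc fell (log2 fold change -1.77, adjusted p = 0.00447, edgeR) and Chl1 rose (0.82, adjusted p = 0.0369). With the block 7 of the 17 passed, against 32.1% of all tested genes. The rise of Chl1 was lost without DMSO replicate 1 and without ZJU-37 replicate 1 or 3, where 1 co-receptor passed, and without the filter on low counts. Among the other ligands of the neuropilins, 1 of 4 tested (5 listed) changed. Vegfa fell from 193 ± 22.9 to 130 ± 8.87 CPM (-0.57, adjusted p = 0.0111, edgeR). With the block 2 of the 4 passed, against 32.1% of all tested genes.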

How the data were processed

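RNA-seq libraries of cultured rat OPCs, 3 given DMSO and 3 given ZJU-37, were analysed. The submitters' processing notes name HISAT2 2.0.5, StringTie 1.3.3b and featureCounts 1.5.0; the genome build and the strand setting are not given in the sources used here. The authors deposited raw counts per gene, neither normalized nor filtered, and FPKM values, which they scaled by gene length and library size. The fold changes and p-values of their own comparison (DESeq2) were not used. Between 13935865 and 24097927 counts were assigned per library. A count of 3 was at most 0.215 CPM, a floor that covers counting error only.

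After filterByExpr and TMM, all 6 libraries entered the robust quasi-likelihood fit of edgeR 4.0.16 (R 4.3.3, glmQLFit, glmQLFTest). The Benjamini-Hochberg adjustment ran over the 14670 genes that were left. CPM is on the TMM scale. Exact two-sided permutation tests of 3 against 3 libraries cannot go below p = 0.1, the value reached by each member whose groups did not overlap. Same-numbered libraries deviated together from their group means (r = 0.39, 0.31 and 0.33 across genes, against -0.27 to -0.01 for other pairs), and the pairing comes from the replicate numbers of the labels. Blocked values are therefore given where they change a call. The alternatives were DESeq2 1.42.0, limma 3.58.1 (voom, log2(FPKM + 1) and log2(FPKM + 0.1)), other normalizations and filters, the block and leaving out each library. The tests were checked on simulated counts. Each member is accounted for: library values are given for members that passed with or without the block and for the 3 highest semaphorins and receptors by FPKM, and for Sema3c, Sema4d and Nrp1, chosen after their values were seen. Of the effector and co-receptor lists, at most 4 genes per direction are named, by size of change. The members, gene lists and marker lists were chosen with earlier results of these data known.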

Additional observations from a re-analysis of the deposited data

How the results depend on the processing

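The 9 members that passed the test passed as well with the RLE, upper quartile and library size normalizations, DESeq2, limma-voom, limma on FPKM, other low-count filters and the replicate block. Of the 9, 7 also passed without each library in turn; Plxna2 and Plxnc1 did not. Over the fits that left out 1 library, 7 to 10 members passed. DESeq2 called 10, adding Sema4d. With the replicate block 14 members, 7 co-receptors, 22 effectors, 2 other neuropilin ligands and 4705 of all tested genes passed, against 9, 2, 13, 1 and 2201 without it, and 50.4% of the calls among all genes were higher, against 62.8%. The block ended the call of 0 members. Where the change also had to reach 1 on the log2 scale in size, 6 members, 1 co-receptor, 2 effectors, 0 other neuropilin ligands (3 at an unadjusted p-value under 0.05) and 622 of all genes passed. Without a filter on low counts 1 co-receptor passed, and limma on log2(FPKM + 1) and on log2(FPKM + 0.1) called 8 effectors each. Leaving out 1 library gave 1306 to 1927 genes in all, 1 to 2 co-receptors, 3 to 9 effectors and 1 other neuropilin ligand; the lowest counts over all genes were 1306 without DMSO replicate 2 and 1351 without ZJU-37 replicate 3. The cause of these shifts was not tested. Of 495 refits of single members, 482 kept their side of the threshold, 6 lost and 7 gained a call, and 0 reversed a call; 10 uncalled members changed sign in at least 1 refit. The scaling alternatives moved the median log2 fold change of all tested genes between -0.03 and 0.00. The lowest count of a member in a library was 9 (Sema3g), and the widest 95% intervals were those of Sema3g and Sema3f.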
